A study of Auxenochlorella pyrenoidosa with 12 samples.

Results

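A group of 97 transcripts of the green alga Chlorella pyrenoidosa stood above the untreated control on the first treated sampling day and stood above it again on the last, out of 30814 assembled contigs measured. Members were chosen from measured values in 3 steps. Both day 0 libraries had to reach 3 FPKM (fragments per kilobase of contig, scaled to library size). The mean of log2(FPKM + 1) on day 0 and that on day 12 each had to exceed the control mean by at least 1, which is 2-fold on that scale. The day 0 and day 12 rises are therefore given as a description, without a test. The tests below compare days 3, 6 and 9, whose libraries had no part in the choice. In the tests of single contigs, however, the spread was estimated from all 12 libraries, including those that chose the members.

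The study exposed cultures of this unicellular freshwater alga (also named Auxenochlorella pyrenoidosa) to potassium peroxymonosulfate (PMS) at 8.49 mg/L, a dose of 0.5 EC50 (the median effective concentration). RNA of whole cells was sequenced from treated cultures of days 0, 3, 6, 9 and 12 and from an untreated control, with 2 libraries in each of the 6 groups. The control's title leaves its day unclear, since its 0 could stand for dose or day, and no untreated culture of a later day was analysed here, so exposure and culture age cannot be told apart on the later days. No label states if paired libraries stem from different cultures, and the p-values below reflect no more than the scatter among these libraries, which may be technical.

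PMS is an oxidant of water treatment that can give rise to sulfate and hydroxyl radicals. Algal cells meet such oxidants with antioxidant enzymes, glutathione and ascorbate, repair of proteins and photosystems, and changes in gene expression that can be quick and passing or lasting. The deposited table lists neither gene names nor sequences, so no member could be assigned to any of these functions, and members are described by their course across the libraries.

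The FPKM of a library summed to between 487140 and 603105, with an unknown sequencing depth behind it. Rescaling the libraries by their median ratio moved the median difference of all contigs from the control by 0.45 at day 3, 0.28 at day 6, 0.24 at day 9 and 0.27 at day 12 (log2), so differences from the control depend in part on the scaling. Libraries of a group agreed closely for most members, with exceptions on the last days. Between the libraries of a group, 0 members differed by 1 or more on log2(FPKM + 1) in the control and on day 0, although members of low FPKM can differ more in FPKM itself. By that log2 measure 2 did on day 3, while day 6 had 1, day 9 had 5 and day 12 had 5. On day 9 the second library was the higher in all 5 of these, and on day 12 the first library was the higher in all 5. Only the day 12 pair had a larger share of such contigs among members (5.15%) than among all tested contigs (3.01%). Day 9 had 8.16% among all tested contigs and 5.15% among members. All tested contigs also had the larger share at day 3, with 9.23% against 2.06%, and at day 6, with 4.07% against 1.03%. In 2 members day 12 library 2 did not lie above both control libraries, so their place in the group rests on day 12 library 1. One of them had 3.48 and 3.74 FPKM in the control, 31.1 in day 12 library 1 and 3.56 in library 2. The other had 33.3 and 32.6 FPKM in the control, 240 in day 12 library 1 and 30.3 in library 2. The dependence reached beyond these 2: with day 12 library 1 left out, 85 of the 97 still met the rule. With day 12 library 2 left out, 93 did.

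The median of the 97 contigs lay below the middle of the tested contigs in the control and in their upper part on day 12. Control, day 0 and day 12 levels chose the members, so this shift is partly set by the rule and was not tested. The control libraries had a member median of 2.96 and 2.85 FPKM, followed by 11.5 and 10.6 at day 0, 9.45 and 10.4 at day 3, 12.8 in each day 6 library, 16.5 and 18.0 at day 9, and 22.3 and 18.6 at day 12. In the control libraries 37.0% and 37.7% of the 17653 tested contigs (averaging 1 FPKM or more) lay below the members' median. In the day 12 libraries 83.3% and 80.9% did. All 97 members passed this filter, and none was below 0.01 FPKM in any library.

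**Figure D1:**
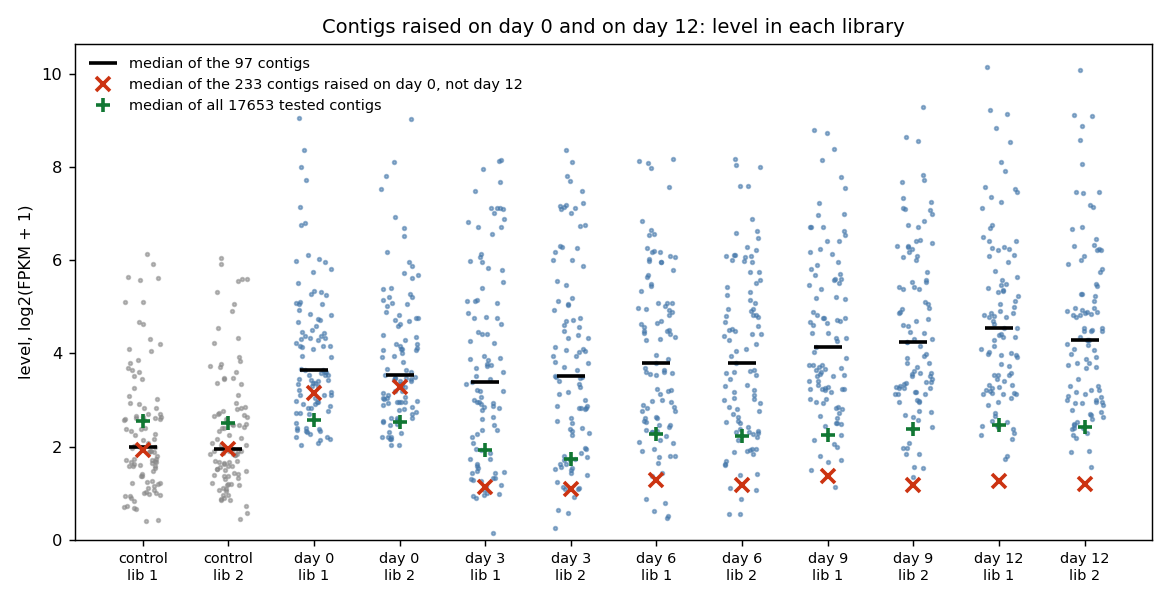
Level of each of the 97 contigs, as log2(FPKM + 1), in the 12 libraries (points, control in grey), with the medians of the members, of the 233 contigs raised on day 0 but not on day 12, and of all 17653 tested contigs. The members' median stays above that of all tested contigs in every treated library, from 9.45 FPKM in day 3 library 1 to 22.3 FPKM in day 12 library 1, and lies below it in both control libraries.

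Together the members took a small share of all FPKM, lowest in the control and highest on day 12, as the rule favours. The share was 0.140% and 0.136% in the control, 0.542% and 0.497% at day 0, 0.604% and 0.699% at day 3, 0.612% and 0.607% at day 6, 0.849% and 1.06% at day 9, and 1.40% and 1.27% at day 12. Days 3 and 6 overlapped, while both day 9 libraries lay above all 4 libraries of days 3 and 6. Among the 15 ways to pair the 6 libraries of days 3, 6 and 9, the spread within the real pairs gave p = 0.2 (exact permutation test). The smallest p that 15 pairings allow is 0.0667, so this test could not pass 0.05 and shows neither a difference nor its absence. The 10 members with the highest FPKM summed over the libraries held 41.6% and 42.7% of the members' FPKM in the control and 59.1% and 64.0% at day 12.

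The day 0 rise was mostly modest and the day 12 rise larger. The median difference from the control was 1.39 at day 0, with quartiles of 1.17 and 1.95, and 2.09 at day 12, with quartiles of 1.39 and 2.93 (log2). These values chose the members, and for reference 2.24% of all tested contigs were at least 1 above the control on day 0 and 26.5% on day 12. Of the members, 21 exceeded the control by at least 2 (log2) on day 0, 52 did so on day 12, and 10 did so on both days. Day 12 stood above day 0 in 69 members, by at least 1 in 32 of them, and at least 1 below day 0 in 7. Of the 17653 tested contigs, 8896 stood above day 0, 5518 of them by at least 1, and 4983 were at least 1 below. The share of members that ended at least 1 above day 0 was thus close to that of all contigs.

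The 32 members that ended at least 1 (log2) above day 0 and the 7 that ended at least 1 below it took different courses. The 32 had a median of 8.15 and 7.76 FPKM at day 0, 12.4 and 13.7 at day 3, 30.5 and 28.1 at day 6, 42.7 and 54.2 at day 9 and 44.2 and 35.7 at day 12. Their median thus passed its day 0 level already on day 3. The 7 stood at 27.2 and 26.0 FPKM at day 0, 4.12 and 5.12 at day 3, 4.37 and 4.19 at day 6, 6.80 and 9.37 at day 9 and 7.21 and 5.70 at day 12, against 2.05 and 1.94 FPKM in the control. These lists were formed on day 0 and day 12 values, so the contrast between those days is part of their definition.

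Members near the thresholds show how fine the borders were. On day 0 the smallest difference inside was 1.02 and the largest outside, among contigs passing the other steps, 0.99, and for day 12 these were 1.00 and 0.94. The lower day 0 library was at 3.07 FPKM for the lowest member and at 2.99 FPKM for the nearest contig left out. A difference within 0.1 of the threshold was seen in 12 members on day 0 and in 7 at day 12.

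Single members spanned a wide range of levels and sizes, and the 4 described next were picked after their values were seen. In the control 8 members were below 1 FPKM in both libraries and 19 averaged 10 FPKM or more. The largest day 0 rise was from 0.340 and 0.661 FPKM in the control to 16.6 and 18.5 FPKM, 35.1-fold in the mean, and this contig ended at 6.73 and 4.48 FPKM at day 12. The highest level on day 0 belonged to a contig at 48.3 and 47.3 FPKM in the control, 530 and 524 at day 0, 127 and 142 at day 3, 72.8 and 73.7 at day 6, 104 and 136 at day 9, and 176 and 175 at day 12. It was thus lowest among the treated days on day 6 and above both control libraries in every treated library. By limma its change was -0.87 from day 3 to day 6 (log2, SE 0.11, adjusted p = 0.000276) and 0.69 from day 6 to day 9 (adjusted p = 0.0111).

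The largest day 12 rise was in a contig at 2.25 and 1.58 FPKM in the control and 6.06 and 7.41 at day 0. It stood at 137 and 149 FPKM at day 3, 61.0 and 62.8 at day 6, 149 and 209 at day 9 and 457 and 468 at day 12, a 242-fold mean level over the control. It fell from day 3 to day 6 with a change of -1.19 (log2, SE 0.17, limma adjusted p = 0.000396) and rose to day 9 (limma adjusted p = 0.00161), from a mean of 61.9 to 179 FPKM. The most abundant member overall had 12.8 and 12.3 FPKM in the control, then 29.7 and 32.2 at day 0, 282 and 331 at day 3, 252 and 255 at day 6, 440 and 626 at day 9, and 1130 and 1087 at day 12. From day 3 to day 6 its change was -0.27 (log2, SE 0.15, limma adjusted p = 0.177), and it rose by 1.05 from day 6 to day 9 (limma adjusted p = 0.00569). For both, the day 0 rise was small beside the later one.

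Between day 0 and day 12 the members parted. Of the 97, 38 were raised on all of days 3, 6 and 9, meaning at least 1 above the control on the log2 scale, against 9.99% of all tested contigs. The other 59 were within 1 of the control, or below it, on at least 1 of these days and so were raised again by day 12. With rescaled libraries these counts were 49 and 48, against 13.9% and 86.1% of all contigs, so the order of the counts turned with the scaling. On day 3, 53 of the 97 were raised, against 15.3% of all tested contigs, and 3 were at least 1 below the control, against 33%. On day 6, 61 were raised, against 22.2%, and 2 were below, against 27%. On day 9, 83 were raised, against 24.6%, and none was at least 1 below, against 25.4%. With rescaled libraries 64, 72 and 86 members were raised on these days, against 24.9%, 27.6% and 29.0% of all contigs. These counts use the control libraries, which also chose the members as low there, so they were not tested.

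Without a fold threshold, more members stayed above the control. Both day 3 libraries lay above both control libraries for 73 members, against 31.4% of all tested contigs. For day 6 this held for 82 members, against 39.8%, and for day 9 for 96, against 39.1%. In all, 90 members were raised on at least 1 of days 3, 6 and 9, and the other 7 were within 1 of the control on all 3 of these days. In those 7 contigs the median was 8.85 and 7.07 FPKM at day 0, 1.78 and 2.30 at day 3, 2.47 and 1.61 at day 6, 2.97 and 2.94 at day 9 and 4.73 and 5.07 at day 12. A name such as raised again thus covers unlike courses: a rise kept on every day for 38 members, a 2-fold rise lost on at least 1 day and present again on day 12 for 59, and a return to within 1 of the control on all 3 days for 7 of these.

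**Figure D2:**
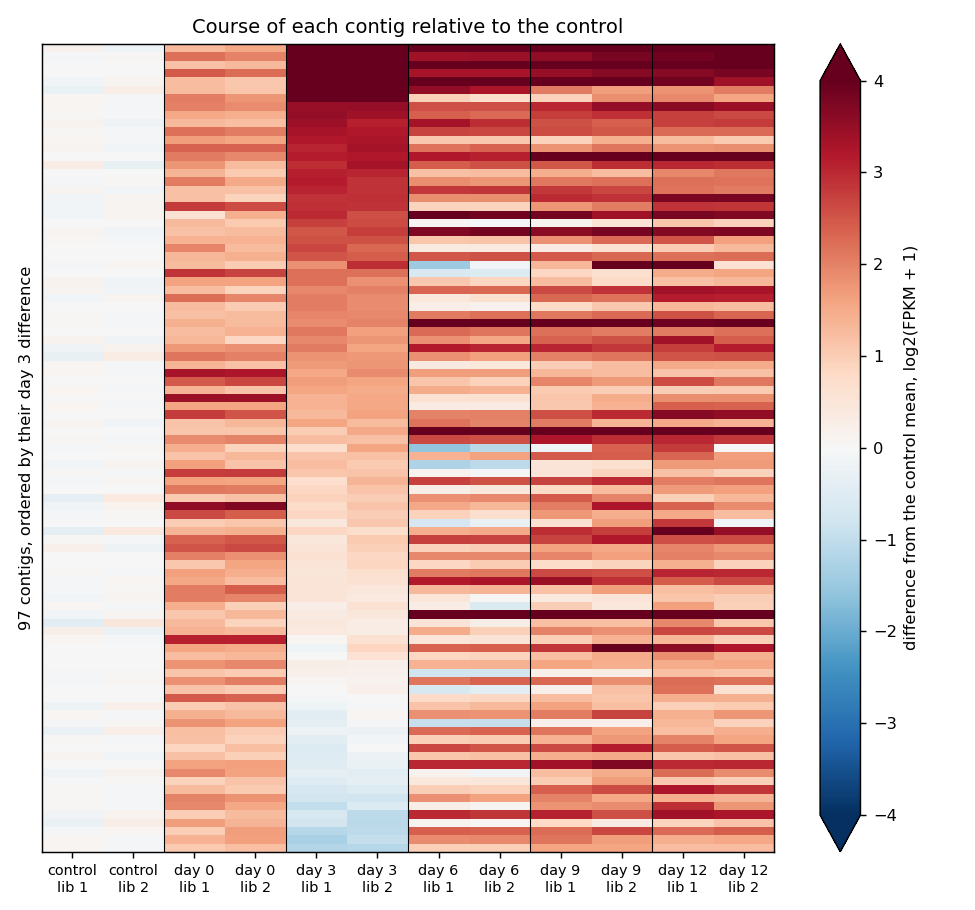
Difference of each of the 97 contigs (rows, ordered by their day 3 difference) from its control mean on log2(FPKM + 1), in each of the 12 libraries (columns), with red above and blue below the control and the colour scale ending at 4 either way. The upper 53 rows are at least 1 above the control on day 3, and the lowest 3 are at least 1 below it, while the group means of day 0 and of day 12 are above the control by the rule, with 2 members not above both control libraries in day 12 library 2.

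Members fell into a sustained class, a class with a trough on day 3, and the rest. The sustained class of 38 members was raised on all of days 3, 6 and 9, which 9.99% of all tested contigs were. Its median was 3.34 and 3.01 FPKM in the control, 10.7 and 11.4 at day 0, 27.4 and 28.5 at day 3, 30.7 and 29.3 at day 6, 37.9 and 36.7 at day 9, and 37.0 and 31.6 at day 12. After day 0 the class median thus stayed between 27.4 and 37.9 FPKM in all 8 libraries.

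The trough class of 27 members had a day 3 mean at least 1 below both day 0 and day 12, as 7.17% of all tested contigs did. Its median was 3.02 and 2.75 FPKM in the control, 14.4 and 14.2 at day 0, 1.69 and 2.30 at day 3, 11.9 and 11.5 at day 6, 19.0 and 17.8 at day 9, and 18.5 in each day 12 library. As deposited, the day 3 median of each library lay below both control medians. Rescaling raises day 3 relative to the control, so this order depends on the scaling. Since day 0 and day 12 were required to be high, a lower day between them is partly fixed by the choice, and the class was not tested. With rescaled libraries the trough class held 18 members, against 4.95% of all contigs, and 1 contig belonged to both as deposited.

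The remaining 33 members had their lowest treated median on day 6, at 4.77 and 4.19 FPKM. They stood at 2.96 and 3.09 FPKM in the control, 11.5 and 9.90 at day 0, 10.4 and 12.9 at day 3, 8.56 and 9.93 at day 9 and 15.1 and 12.0 at day 12. Over all 97 members, the lowest treated day was day 3 for 40, day 0 for 27, day 6 for 27 and day 12 for 3. Among all tested contigs these shares were 32.1%, 35.4%, 9.97% and 13.7%. The highest was day 12 for 29, day 3 for 22, day 0 for 18, day 9 for 18 and day 6 for 10. Among all tested contigs these were 25.8%, 13.1%, 39.6%, 9.96% and 11.5%, near the members' 29.9% for day 12 and 10.3% for day 6. Day 0 and day 12 levels chose the members, so these counts were not tested.

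**Figure D3:**
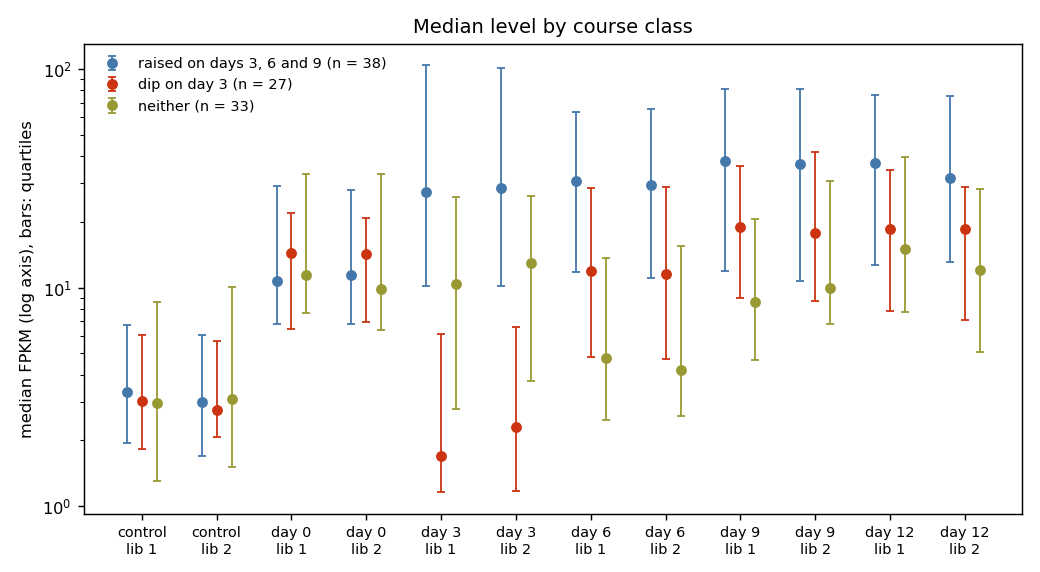
Median FPKM (log axis) of the sustained class (38 contigs), the trough class (27) and the remaining members (33) in each of the 12 libraries, with bars from the lower to the upper quartile of the contigs. The classes start at 2.75 to 3.34 FPKM in the control and part on day 3, where the trough class stands at 1.69 and 2.30 FPKM and the sustained class at 27.4 and 28.5 FPKM.

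From day 3 to day 6 the members moved in opposite directions. By limma on log2(FPKM + 1) with Benjamini-Hochberg adjustment over all tested contigs and a threshold of 0.05, 38 of 97 rose, against 31.2% of all tested contigs. Another 30 fell, against 14.4%. The median change was 1.52 among those that rose and -1.18 among those that fell (log2), and 29 and 21 of them reached 2-fold. Called or not, 29 of the 97 members were up and 24 down by at least 1 (log2). Of the 17653 tested contigs, 3478 were up and 1093 down by as much. Over all members the median change was 0.05, against 0.23 over all tested contigs. With rescaled libraries 33 rose and 37 fell, against 25.4% and 22.3% of all contigs, so the balance of directions among members turned with the scaling. With a minimum mean of 5 FPKM, 34 of 85 members rose and 29 fell, against 39.8% and 24.0% of all contigs. The share of rises among members was then close to that of all contigs.

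The lists of members that rose and fell were formed on the change from day 3, so their unlike day 3 levels are part of their definition. The 38 that rose had a median of 9.83 and 10.3 FPKM at day 0, 3.73 and 4.94 at day 3 and 23.5 and 21.8 at day 6. The 30 that fell went from 19.0 and 16.1 FPKM at day 0 and 47.9 and 40.9 at day 3 to 17.5 and 16.8 at day 6. On day 12 these lists stood at 24.5 and 21.4 FPKM and at 26.6 and 26.9 FPKM, close to each other after unlike courses.

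Contigs are named here by the largest called changes from day 3 to day 6. TRINITY_DN1645_c0_g1_i4_2 had 8.63 and 10.1 FPKM in the control, 20.6 and 25.2 at day 0, 12.2 and 13.0 at day 3, 278 and 265 at day 6, 336 and 227 at day 9, and 164 and 177 at day 12. Its libraries of days 6, 9 and 12 all lay above those of the control, day 0 and day 3. From day 3 to day 6 it rose by 4.32 (log2, SE 0.17, limma adjusted p = 2.39e-07), and its mean FPKM by 21.5-fold. From day 6 to day 9 its change was 0.03 (limma adjusted p = 0.949), with day 9 at 281 ± 76.9 FPKM (SD, n = 2).

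TRINITY_DN1043_c0_g1_i2_1 had 1.98 and 2.58 FPKM in the control, 5.47 and 6.90 at day 0, 1.09 and 0.566 at day 3, 24.8 and 22.9 at day 6, 26.3 and 18.7 at day 9, and 32.6 and 30.3 at day 12. Both day 3 libraries lay below both control libraries, and all libraries from day 6 on lay above those of day 0. It rose by 3.78 from day 3 to day 6 (log2, SE 0.20, limma adjusted p = 1.12e-06).

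TRINITY_DN288_c0_g2_i4_1 had 2.19 and 1.84 FPKM in the control, 11.5 and 9.16 at day 0, 56.0 and 58.0 at day 3, 4.77 and 3.96 at day 6, 4.68 and 9.93 at day 9, and 10.5 and 7.99 at day 12. Its level thus peaked on day 3, and the levels of days 0 and 12 overlapped. The change from day 3 to day 6 was -3.44 (log2, SE 0.27, limma adjusted p = 1.25e-05), a 13.1-fold lower mean FPKM.

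TRINITY_DN15930_c0_g1_i1_2 had 6.53 and 6.61 FPKM in the control, 55.6 and 48.3 at day 0, 33.8 in each day 3 library, 3.95 and 4.19 at day 6, 12.5 and 10.9 at day 9, and 20.3 and 21.7 at day 12. Day 6 lay below the control, and no group overlapped another. It fell from day 3 to day 6 with a change of -2.78 (log2, SE 0.10, limma adjusted p = 1.44e-07). It then rose by 1.32 to day 9 (log2, SE 0.10, limma adjusted p = 0.000287).

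**Figure D4:**
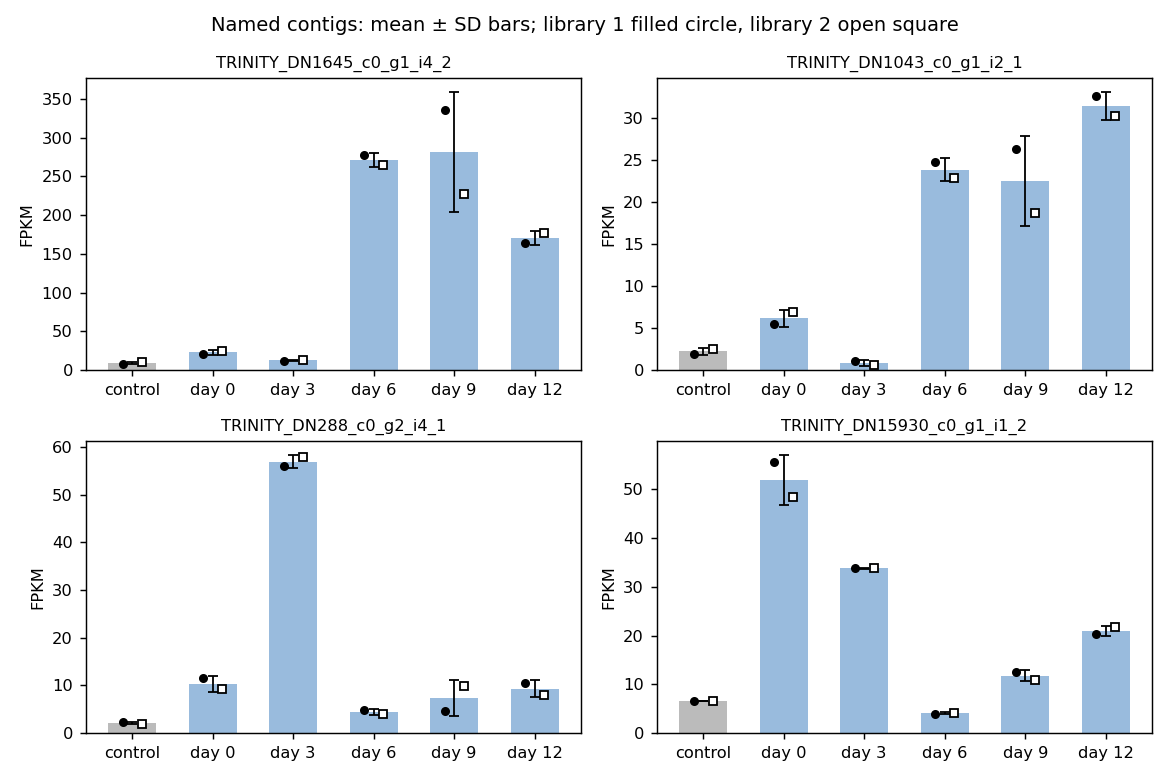
FPKM of the 4 named contigs by group, with bars for the mean, error bars for the SD (n = 2), filled circles for library 1 and open squares for library 2. The upper contigs rise between day 3 and day 6, from 12.6 to 271 and from 0.827 to 23.9 FPKM in the mean, and the lower ones fall, from 57.0 to 4.36 and from 33.8 to 4.07 FPKM.

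From day 6 to day 9 changes in the members were mainly upward. By the same limma test 31 of 97 rose, against 5.05% of all tested contigs, and 1 fell, against 1.5%. The median change of the 31 was 0.91 (log2), and over all members it was 0.46, against 0.03 over all tested contigs. The day 9 mean was above the day 6 mean in 77 members, and in 9280 of the 17653 tested contigs. Both day 9 libraries lay above both day 6 libraries in 59 members, against 28.3% of all tested contigs. Among the 233 contigs raised on day 0 but not on day 12, 229 were tested, of which 14 rose and 5 fell. Day 12 chose the members and follows day 9, so the levels of these days may be high together, and the difference between the lists was not tested.

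This count depended on single libraries and on the shared estimate of the spread. It was 11 when either day 6 library was left out and 21 when day 9 library 2 was, against 1.27% (day 6 library 1), 1.28% (day 6 library 2) and 2.55% of all contigs. When only the 4 libraries of days 6 and 9 were fitted, limma called 0 members and 0 contigs in all, with 49 members and 1982 contigs higher and 4 and 1156 lower at an unadjusted p under 0.05. The member counts for day 6 against day 3 moved less when any single library was left out, although the shares of all contigs called moved as well.

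**Figure D5:**
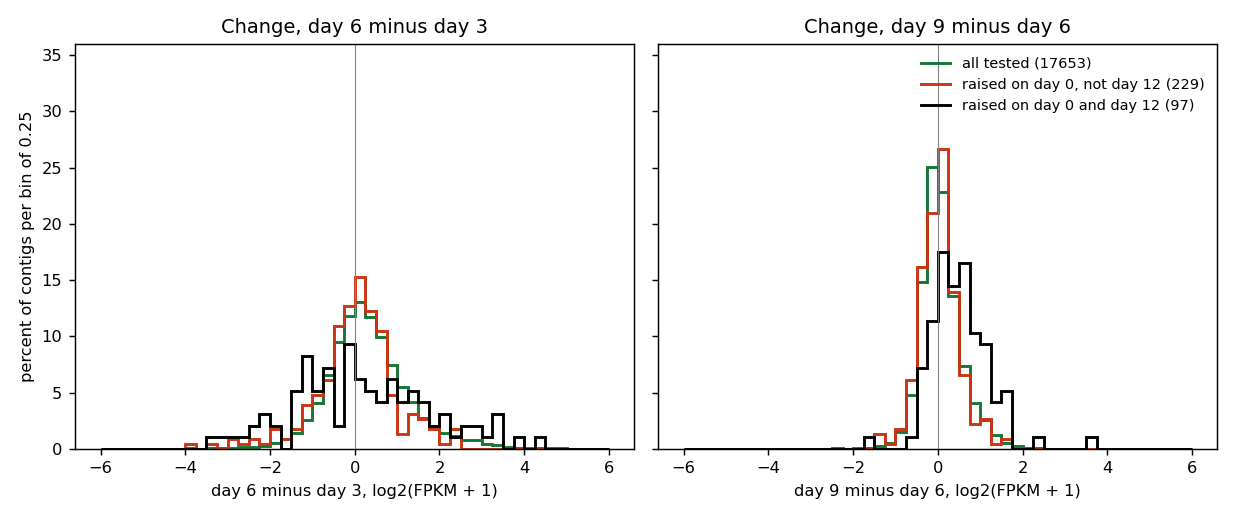
Share of contigs per bin of 0.25 on the log2(FPKM + 1) scale by their change from day 3 to day 6 (left) and from day 6 to day 9 (right), for the 97 members, the 229 tested contigs raised on day 0 but not on day 12, and all 17653 tested contigs. On the left the members spread wider than all contigs, with a median of 0.05. On the right 77 of the 97 members lie above 0, and the median of all 97 is 0.46.

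Of the 30 members that fell from day 3 to day 6, 16 rose to day 9, 13 were not called and 1 fell further. Among all tested contigs 2535 fell to day 6, and 7.97% of these rose to day 9. Both contrasts use the day 6 libraries, so an error in their values moves the contrasts in opposite directions, and the sequence itself was not tested. The 16 had a median of 27.4 and 30.0 FPKM at day 3, 9.93 and 11.1 at day 6, 16.6 and 21.2 at day 9 and 33.9 and 32.9 at day 12. Of the 38 that rose to day 6, 10 rose again to day 9 and 28 were not called, where 7.47% of the 5513 contigs that rose to day 6 in all rose again. The 28 had 21.7 and 21.5 FPKM at day 6, 24.1 and 18.4 at day 9 and 17.7 and 19.9 at day 12, so day 9 overlapped both neighbouring days and day 12 lay below day 6. The 24 members called in neither step, as 52.3% of all tested contigs were, had 9.27 and 10.3 FPKM at day 3, 9.52 and 8.48 at day 6 and 10.0 and 12.0 at day 9. The only member that fell from day 6 to day 9 had 41.4 and 32.0 FPKM at day 3, 21.4 and 17.5 at day 6, 7.13 and 5.18 at day 9 and 5.64 and 6.95 at day 12.

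Over the whole span from day 3 to day 9, 47 members rose and 21 fell, against 34.9% and 16.1% of all tested contigs (limma, as above). The median change of those that rose was 1.82 and of those that fell -1.01 (log2). With rescaled libraries 45 rose and 30 fell, against 28.4% and 24.7% of all contigs. With a minimum mean of 5 FPKM, 42 of 85 members rose and 20 fell, against 41.4% and 27.4% of all contigs. Falls were then no more frequent among members than among all contigs. In all, 16 of the 97 were called in none of the contrasts among days 3, 6 and 9, against 42.4% of all tested contigs.

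The 233 contigs that met the day 0 conditions but not the day 12 one are the closest group, since 330 contigs were raised on day 0 and the members are 29.4% of them. Their control medians were 2.80 and 2.86 FPKM, near the 2.96 and 2.85 FPKM of the members. On day 0 these stood at 7.84 and 8.69 FPKM, somewhat below the members. On day 3 they were at 1.20 and 1.13 FPKM, and on day 12 at 1.40 and 1.28 FPKM, below their control. On day 3, 19 of the 233 were raised and 82 were at least 1 below the control, where 53 and 3 of the 97 members were. Day 0 was the highest treated day for 221 of the 233 and for 18 of the 97, against 39.6% of all tested contigs. The day 12 condition separates the groups by design, so this difference is a description.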

How the data were processed

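FPKM values were computed by the authors and deposited as 1 table of 30814 contigs and 12 libraries, with contig names in the style of the Trinity assembler. Per the labels' protocols, total RNA went through an Illumina TruSeq RNA library kit. For the assembly settings, aligner, abundance program, filters and annotation, nothing is stated (not given in the sources used here). Library titles gave dose, day and replicate.

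Values were analysed as log2(FPKM + 1), which understates the changes of low contigs. The fit used limma 3.58.1 (intensity trend) in R 4.3.3 on 17653 contigs averaging 1 FPKM or more over the libraries, with all 12 libraries and 6 residual degrees of freedom. Adjusted p-values are Benjamini-Hochberg over all contigs tested, with a threshold of 0.05. The script was tested on simulated data. Python 3.11.15 made the summaries.

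Members, classes and tests were chosen with earlier results of these data known. Contigs were named by the 2 largest called rises and the 2 largest called falls from day 3 to day 6 without overlap of libraries. The file pairs no IDs with names, so the other members carry none. With 2 libraries against 2 the smallest exact permutation p is 0.333, so such pairs were not tested that way. Depth in reads is unknown: low values were compared with control library 1 for steps of a single fragment, and the fullest bin of ratios held 3.57 to 27.8 times the median bin, but contig lengths were not given and no fragment numbers were recovered. No libraries of a group shared an identical value above 0. Alternatives were another pseudocount (0.1), filters (none, mean of 5 FPKM), rescaled libraries, a replicate block, fits of 4 libraries, single libraries left out, and other member rules.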

Additional observations from a re-analysis of the deposited data

How the results depend on the processing

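Of 284 recomputed values, 267 kept their direction, their side of the threshold or a count within 1.5 times the reported one. Each of the 4 named contigs, chosen for large changes, gave 18 of the kept values. The band of 1.5 times also passed the rescaled counts of 33 rises and 37 falls to day 6, whose balance turned. The tally is thus a loose measure. The rule gave 62 members when every day 0 and day 12 library had to be at least 1 above both controls, 49 with a day 0 minimum of 10 FPKM, and 85 to 116 when single libraries were left out. Rises from day 6 to day 9 numbered 0 with the 4 libraries of these days alone and 11 to 41 when single libraries were left out. The 1 fall from day 6 to day 9 became 0 with those 4 libraries, 3 with a minimum mean of 5 FPKM, 3 with rescaled libraries and 0 to 3 when single libraries were left out.

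Among the 62 stricter members, a list chosen after seeing the data and shorter by construction, 24 rose and 23 fell from day 3 to day 6. From day 6 to day 9, 25 rose and 0 fell. From day 3 to day 9, 31 rose and 17 fell, and 16 members had the trough. Without the 5 members whose day 12 libraries differed by 1 or more (log2), 37 of 92 rose and 30 fell to day 6. Of these 92, 30 rose from day 6 to day 9. Both lists stand against the same shares of all tested contigs. To day 6, 31.2% rose and 14.4% fell, and from day 6 to day 9, 5.05% rose and 1.5% fell. From day 3 to day 9, 34.9% rose and 16.1% fell, and 7.17% had the trough.

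Replicate numbers pair nothing in the labels, and library differences correlated between -0.188 and 0.41, over 0.1 in 3 of 15 pairs of groups. These 3 are the pairs among the tested days, at 0.41 for days 3 and 6, 0.246 for days 3 and 9 and 0.279 for days 6 and 9. With the replicate block 37 members rose and 30 fell to day 6, against 30.5% and 13.7% of all tested contigs. From day 6 to day 9, 30 rose and 2 fell, against 3.97% and 1.02%. From day 3 to day 9, 47 rose and 21 fell, against 34.5% and 15.8%. The block thus moved no member count but the 1 fall by over 1.5 times. Where a library was left out, the lone one was assumed to vary like the other groups. The causes of these shifts were not tested.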

Other observations

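The members came from 97 different Trinity genes, so no member shares a gene of the assembly with another. At the broader level of the Trinity component 2 members shared one, and their courses were unlike. One went from 3.24 and 2.75 FPKM in the control to 33.0 and 33.1 at day 0, 3.21 and 5.12 at day 3 and 9.02 and 6.66 at day 12. The other went from 15.6 and 9.92 FPKM to 44.3 and 31.3 at day 0, 104 and 135 at day 3 and 108 and 103 at day 12.

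The Trinity genes of 43 members had at least 1 further contig in the table. Among 40 such further contigs that were tested, 1 was at least 1 above the control on day 0 and 9 at day 12. These are near the shares of all tested contigs, 2.24% and 26.5%. The median differences of the 40 were 0.01 and 0.25 (log2). No source used here says how fragments were divided among contigs of a gene.

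The number appended to the contig names was 1 in 17 members, 2 in 31, 3 in 27 and 4 in 22. Among all tested contigs the shares were 19.2%, 25.9%, 25.9% and 29.0%, and among members 17.5%, 32.0%, 27.8% and 22.7%. No source used here says what the number means.

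Across the 97 members the Pearson correlation of log2(FPKM + 1) between libraries within a group lay between 0.982 and 0.992 in the control and at days 0, 3 and 6, and was lower at day 9 (0.952) and day 12 (0.943). It was 0.952 between day 9 library 1 and day 12 library 2, and 0.951 between day 9 library 2 and day 12 library 1. It was 0.909 between the first libraries of days 9 and 12 and 0.921 between the second ones. All 5 members that were higher by 1 or more (log2) in day 12 library 1 than in library 2 were higher in day 9 library 2 than in library 1, 3 of them by 1 or more. The most divergent member had 12.7 and 29.4 FPKM at day 3, 0.420 and 2.60 at day 6, 8.66 and 74.4 at day 9, and 75.7 and 4.76 at day 12.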
